A study of Mus musculus with 9 samples.

Results

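The genes described here are 10 members of the circadian clock: the activators Arntl and Clock, the repressors Per1, Per2, Per3 and Cry1, the nuclear receptors Nr1d1 and Nr1d2, and the output factors Dbp and Tef. They were taken by name and not by their values, as every probe set annotated to a single one of these symbols, which gave 25 of the 45101 probe sets on the array. They are described as a check on the time of collection. Transcript levels were measured on 9 Affymetrix Mouse Genome 430 2.0 arrays of CD45-depleted cells from the thymus of female C57BL/6J mice aged 6 to 8 weeks. All 9 samples passed through the same magnetic depletion of CD45-bearing cells, and each pooled the cells of several mice. The protocol calls the pooled cells thymic ECs, an abbreviation it does not spell out, where the other labels speak of stromal cells. The untreated group held 3 samples. The day 4 and day 7 groups, also of 3 samples each, came from mice 4 and 7 days after SL-TBI, a total body irradiation given here at 550 cGy from a cesium source with no hematopoietic rescue. Nothing in the labels tells if a group's 3 samples were separate pools, so p-values measure only the spread between these samples, which may be technical. They give no hour of harvest. The hour of collection and the irradiation therefore cannot be told apart in any comparison below.

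The circadian clock is a loop of transcription that runs in nearly every cell of the body. CLOCK and ARNTL (also called BMAL1) bind together to E-boxes and switch on the Per and Cry genes, whose proteins return to the nucleus and block their own activators. The same pair switches on Nr1d1 and Nr1d2 (REV-ERB alpha and beta), which repress Arntl through ROR elements, and Dbp, which together with TEF and HLF activates genes that carry D-boxes. In most mouse tissues Arntl and Dbp therefore peak at opposite times of day, with Cry1 later than the Per genes. Per1 is also switched on directly by glucocorticoid hormone and by cAMP signals.

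The promoter stretches below are shown because they carry letters of these elements. None of the elements searched lay in the windows of Dbp, Nr1d2 and Clock. RefSeq windows of GRCm38.p6, running from 250 bases before to 50 bases after a gene's start, were held for 9 members in 14 windows. Capitals mark the element, letters run 5′ to 3′ on the gene's own strand, and positions count from the start of transcription.
Per1, chr11:69098759-69098812, plus strand, E-box: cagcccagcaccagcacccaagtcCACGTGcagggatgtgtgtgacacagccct
Cry1, chr10:85185085-85185157, minus strand, E-prime box and E-box: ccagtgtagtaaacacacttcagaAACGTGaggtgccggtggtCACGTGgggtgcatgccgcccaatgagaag
Per3, chr4:151044792-151044894, minus strand, 2 D-boxes: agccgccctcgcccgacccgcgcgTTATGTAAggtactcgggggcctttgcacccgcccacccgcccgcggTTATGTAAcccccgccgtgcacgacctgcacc
Tef, chr15:81811252-81811305, plus strand, E-box: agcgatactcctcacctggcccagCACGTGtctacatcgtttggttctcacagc
Nr1d1, chr11:98775378-98775429, minus strand, E-prime box: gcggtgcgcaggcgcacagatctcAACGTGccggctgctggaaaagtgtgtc
Arntl, chr7:113207531-113207557, plus strand, ROR element: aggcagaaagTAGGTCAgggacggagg

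The E-box CACGTG, searched on both strands, lay in windows of Per1, Cry1 and Tef, and in 7.15% of the 32851 windows of all genes. Tef held it in windows of 2 separate starts. The E-prime box CACGTT, which differs from the E-box in its last letter, was also searched on both strands. It lay in windows of Cry1 and Nr1d1 and in 4.68% of all windows. In both genes it lay on the strand opposite the gene, so the capitals shown above read AACGTG. The D-box, as TTATGTAA or TTACGTAA, lay in the members' windows only at Per3, at 2 places, and in 1.06% of all windows. The ROR element, as TAGGTCA or TGGGTCA, was found at Arntl alone among the members and in 6.45% of all windows. The cAMP element TGACGTCA was found in no member window and in 1.79% of all windows. These matches are descriptions of letters in a short window and not measured binding sites.

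Levels are log2 values normalized with GCRMA, so 1 unit is a 2-fold difference, and the lowest value in the table, 2.27, was shared by 26.1% to 27.2% of the probe sets of each array. A gene was tested where at least 3 of the 9 arrays reached a log2 value of 4, which 10937 of 18193 genes did, and each gene was read from its probe set with the highest mean. Differences were tested with limma over all 9 arrays and adjusted over all tested genes, and a gene is said to have risen or fallen where the adjusted p was under 0.05. Much of the array moved: 63.2% of the tested genes passed at day 4 and 54.1% at day 7, both against untreated, and 27.3% passed between the irradiated groups. Of those that passed, 66.1% were higher at day 4, 59.3% at day 7 and 35.8% in day 7 against day 4. These splits became 35.7%, 37.4% and 60.2% when each array was centred on its epithelial markers, which shifted the median of all genes by −0.38, −0.22 and 0.16. Centring on the mean of the tested genes shifted it by −0.11, −0.04 and 0.07, and the last split became 47.5%. The comparisons of day 4 and of day 7 with untreated share the untreated arrays. Despite the depletion, Ptprc, which encodes CD45, had log2 levels of 12.22 ± 0.25 in untreated, 4.64 ± 0.53 at day 4 and 9.51 ± 0.22 at day 7 (SD, n = 3). Untreated replicate 3 stood apart in its endothelial markers, whose mean log2 level was 6.19 there and 4.33 and 4.48 in the other untreated arrays.

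Of the 10 members, 8 could be tested, and each of these was at or above the log2 level of 4 on all 9 arrays, so none entered the test through the irradiated groups alone. Dbp, Per3, Tef, Nr1d2 and Clock rose and Per1, Cry1 and Arntl fell, at day 4 and again at day 7. For all 8 the irradiated arrays did not overlap the untreated arrays, at either day. Among all tested genes, 41.8% rose and 21.4% fell at day 4, and 67.7% did not overlap. At day 7 these shares were 32.1%, 22.0% and 62.4%. The median difference of the 8 members was 0.44 log2 at day 4 and 0.71 at day 7, beside 0.20 and 0.09 over all tested genes. With each array centred on its epithelial markers, 3 members rose and 3 fell at day 4, with a median of 0.06, and 4 rose and 3 fell at day 7. The count of 8 of 8 is read against these shares, which are themselves high.

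**Figure D1:**
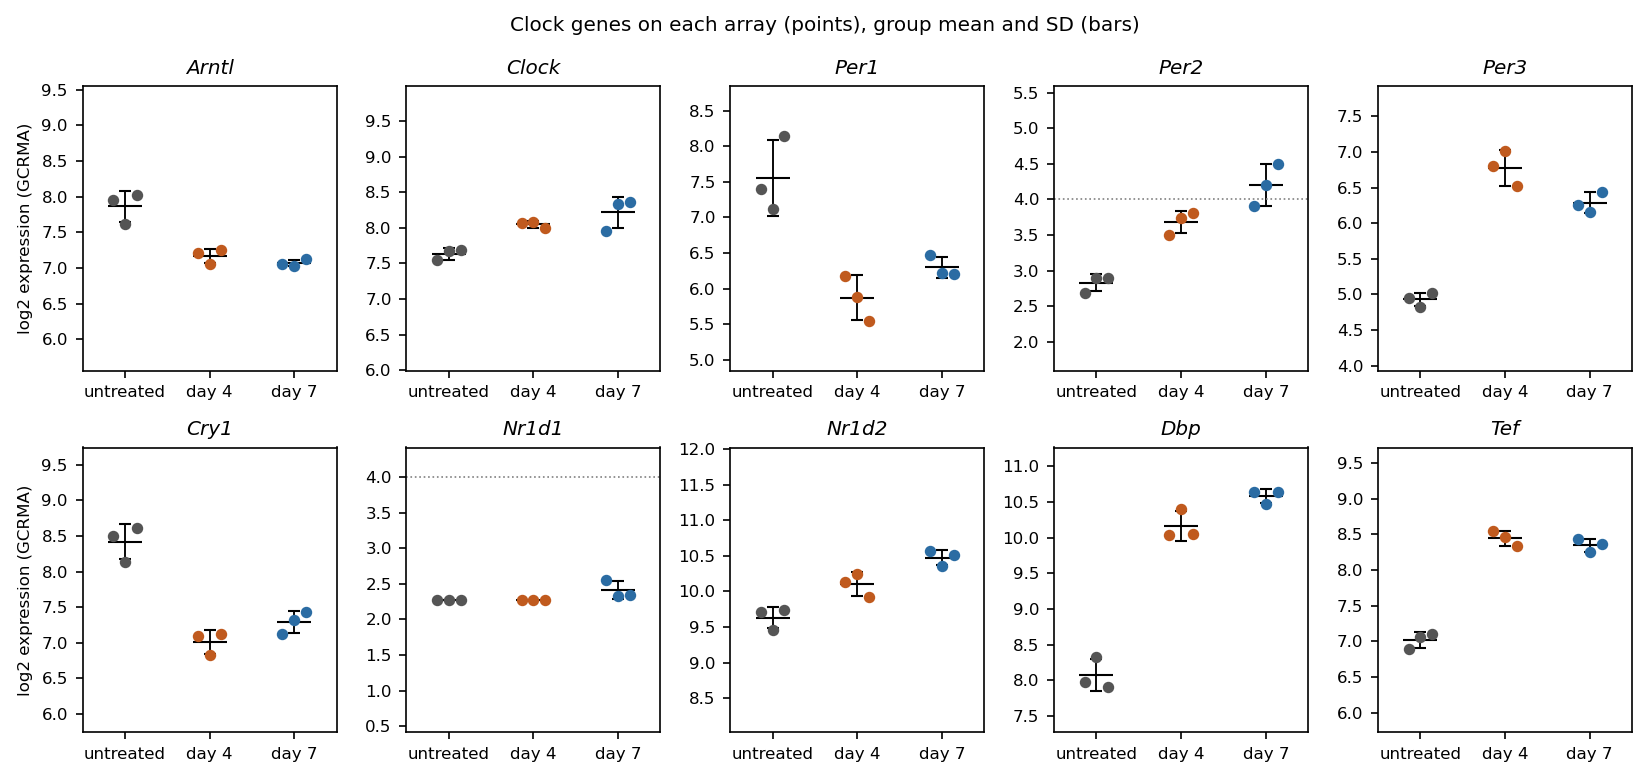
Deposited log2 level (vertical axis) of each of the 10 members on each of the 9 arrays, by group, with points for arrays, bars for the group mean and SD, and a dotted line at the level of 4 where it is in view; each panel has its own axis range. Dbp, Per3, Tef, Nr1d2 and Clock lie higher, and Per1, Cry1 and Arntl lower, on every irradiated array than on every untreated one; Nr1d1 stays at the lowest values of the table.

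Arntl, the activator whose level swings with the time of day in most tissues, was lower on every irradiated array. Its log2 levels were 7.95, 7.61 and 8.02 in untreated, 7.21, 7.06 and 7.25 at day 4, and 7.06, 7.03 and 7.12 at day 7. The lowest untreated array stood above the highest irradiated one, and the 2 irradiated groups overlapped. The fall was 1.62-fold at day 4, a difference of −0.69 with a standard error (SE) of 0.12 (adjusted p = 0.000881), and 1.73-fold at day 7, a difference of −0.79 with the same SE (adjusted p = 0.000646). Centred on the epithelial markers, the day 4 difference was −1.07. Another Arntl probe set, too dim to be tested, read 3.32, 2.99 and 4.04 in untreated and between 2.27 and 2.39 on all 6 irradiated arrays.

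Clock encodes the partner of ARNTL and is known to vary little over the day in most tissues. Read from its brightest probe set, it rose by the smallest amount among the members that rose. The other Clock probe sets, given below, differed from untreated by 0.98, 0.88 and 0.33 at day 4. The brightest had log2 levels of 7.54, 7.68 and 7.69 in untreated, 8.07, 8.08 and 7.99 at day 4, and 7.96, 8.33 and 8.36 at day 7. All irradiated arrays were above all untreated arrays. The rise was 1.33-fold at day 4 (0.41, SE 0.12, adjusted p = 0.0134) and 1.49-fold at day 7 (0.58, SE 0.12, adjusted p = 0.00315). When each array was centred on its epithelial markers both calls were lost, with differences of 0.03 (adjusted p = 0.865) and 0.36 (adjusted p = 0.076).

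The Per genes, which encode the repressors that pair with the CRY proteins, did not move one way. Per1 had log2 levels of 7.41, 7.11 and 8.14 in untreated, 6.18, 5.88 and 5.55 at day 4, and 6.47, 6.22 and 6.21 at day 7. Every irradiated array was below every untreated one, and untreated replicate 3, the array with the higher endothelial markers, had the highest Per1 level. Per1 fell 3.21-fold at day 4 (−1.68, SE 0.26, adjusted p = 0.000452) and 2.38-fold at day 7 (−1.25, SE 0.26, adjusted p = 0.0032). Without untreated replicate 3 the differences were −1.39 (adjusted p = 0.000453) and −0.96 (adjusted p = 0.00382).

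Per3, which is dispensable for the core loop and carries the D-box letters shown above, moved the other way. Its log2 levels were 4.94, 4.83 and 5.02 in untreated, 6.80, 7.01 and 6.51 at day 4, and 6.26, 6.15 and 6.44 at day 7. The 3 groups did not overlap, with day 4 highest. Per3 rose 3.6-fold at day 4 (1.85, SE 0.14, adjusted p = 7.64e-06) and 2.56-fold at day 7 (1.36, SE 0.14, adjusted p = 9.85e-05).

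Per2 was near the floor of the array and was not tested, since only 2 of its 9 arrays reached the level of 4. Its brightest probe set read 2.69, 2.90 and 2.90 in untreated, 3.51, 3.74 and 3.80 at day 4, and 3.90, 4.20 and 4.50 at day 7. The groups did not overlap and lay in the order untreated, day 4, day 7. Against the level of 4, the day 7 mean of 4.20 was at least 1.15-fold higher than untreated, with 2 of its 3 arrays at or above that level. No fold is given for day 4, where both groups were below it.

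Cry1, whose protein is the strongest repressor of CLOCK and ARNTL, fell beside Per1. Its log2 levels were 8.50, 8.14 and 8.61 in untreated, 7.10, 6.82 and 7.13 at day 4, and 7.12, 7.32 and 7.43 at day 7. Every irradiated array lay below every untreated one, while the irradiated groups overlapped. Cry1 fell 2.64-fold at day 4 (−1.40, SE 0.15, adjusted p = 5.54e-05) and 2.18-fold at day 7 (−1.13, SE 0.15, adjusted p = 0.000346).

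Of the REV-ERB receptors, which repress Arntl, only Nr1d2 was measured above the filter. Its log2 levels were 9.71, 9.46 and 9.73 in untreated, 10.13, 10.25 and 9.92 at day 4, and 10.57, 10.35 and 10.51 at day 7. The 3 groups did not overlap and lay in the order untreated, day 4, day 7. Nr1d2 rose 1.38-fold at day 4 (0.47, SE 0.12, adjusted p = 0.00831) and 1.79-fold at day 7 (0.84, SE 0.12, adjusted p = 0.000536). Centred on the epithelial markers, its day 4 difference was 0.09 (adjusted p = 0.624). The single probe set of Nr1d1 gave the floor value of 2.27 on all 6 untreated and day 4 arrays and 2.55, 2.33 and 2.34 at day 7, so nothing can be said of Nr1d1 from this array.

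Dbp and Tef encode PAR bZIP factors that carry the rhythm to output genes through D-boxes, and they rose with Per3. Dbp had the largest change of the tested members at both days. Its log2 levels were 7.98, 8.32 and 7.91 in untreated, 10.04, 10.40 and 10.05 at day 4, and 10.64, 10.47 and 10.65 at day 7. The 3 groups did not overlap. Dbp rose 4.27-fold at day 4 (2.09, SE 0.14, adjusted p = 4.92e-06) and 5.73-fold at day 7 (2.52, SE 0.14, adjusted p = 8.13e-06).

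Tef had log2 levels of 6.89, 7.06 and 7.10 in untreated, 8.54, 8.47 and 8.34 at day 4, and 8.43, 8.25 and 8.36 at day 7. The untreated arrays lay well below the irradiated ones, which overlapped each other. Tef rose 2.7-fold at day 4 (1.43, SE 0.10, adjusted p = 5.4e-06) and 2.51-fold at day 7 (1.33, SE 0.10, adjusted p = 2.62e-05).

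The range of the 3 group means places each member among all tested genes, whose median range was 0.61 log2. Dbp, at 2.52, had a wider range than 95.7% of the tested genes. Per3 (1.85) was wider than 90.7% of them and Per1 (1.68) than 88.7%. Tef and Cry1, at 1.43 and 1.40, were wider than 84.3% and 83.6%. Nr1d2, Arntl and Clock, at 0.84, 0.79 and 0.58, lay nearer the middle, wider than 64.3%, 61.8% and 47.7%. By this range, read from the brightest probe set of each gene, the members thus lay between the upper end of the tested genes and near their median. For Clock, 2 other probe sets differed more from untreated at day 4 (0.98 and 0.88).

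**Figure D2:**
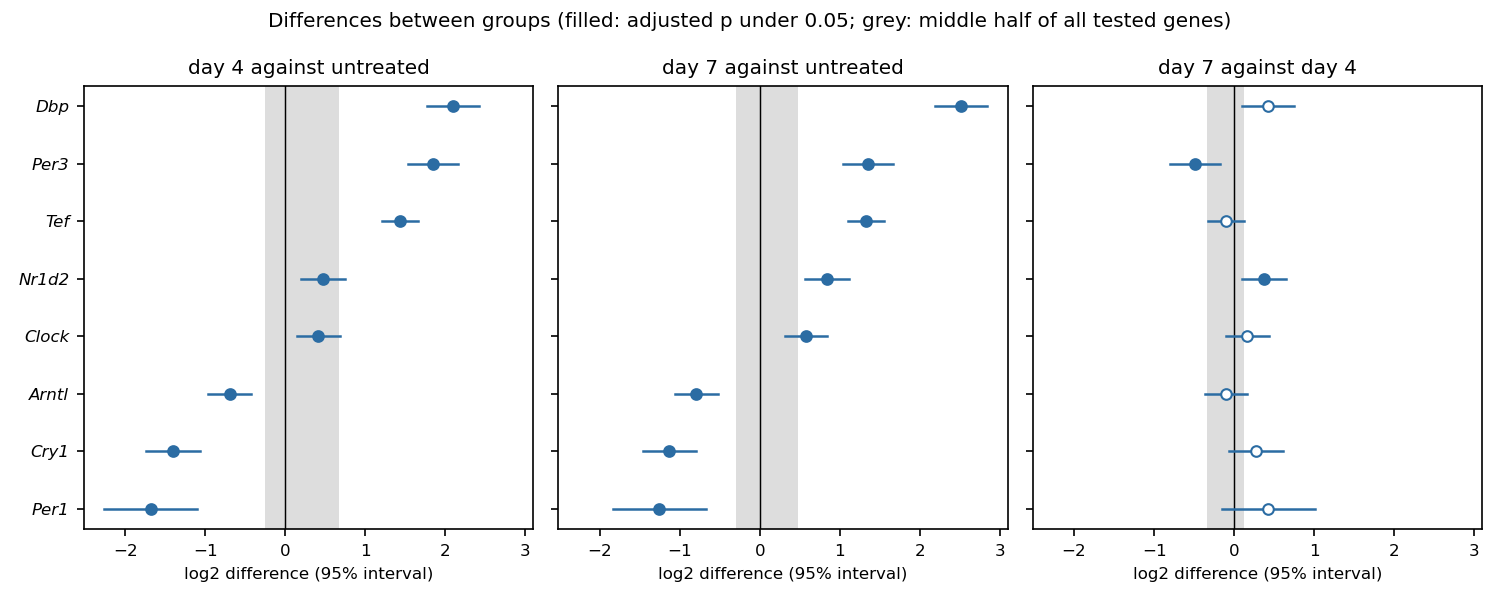
Log2 difference (horizontal axis) with its 95% interval for the 8 tested members in each of the 3 comparisons; filled points passed an adjusted p of 0.05, and the grey band holds the middle 50% of all tested genes. Against untreated, Nr1d2 and Clock lie within or near the band at day 4 while Dbp, Per3, Tef, Arntl, Cry1 and Per1 lie outside it at both days.

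Between day 7 and day 4 the members differed less. Nr1d2 rose and Per3 fell, and 6 of the 8 tested members did not pass, where 9.78% of all tested genes rose and 17.6% fell. In 4 of the 8 the groups did not overlap, beside 51.7% of all tested genes, and the median difference was 0.22 log2 beside −0.10. Nr1d2 was 1.3-fold higher at day 7 (0.38, 95% interval 0.10 to 0.65, adjusted p = 0.0474). Per3 was 1.41-fold lower (−0.49, 95% interval −0.80 to −0.18, adjusted p = 0.0287). Both calls were near the threshold. That of Nr1d2 was lost when any single irradiated array or untreated replicate 1 was left out (adjusted p up to 0.135). That of Per3 was lost without day 4 replicate 1 (adjusted p = 0.0799) or 2 (0.0922) and without day 7 replicate 1 (0.0768) or 2 (0.101).

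Dbp was 0.42 log2 higher at day 7 than at day 4 (95% interval 0.10 to 0.75, adjusted p = 0.0554), with no overlap between these groups. Per1 was 0.43 higher (95% interval −0.15 to 1.01, adjusted p = 0.24), also with no overlap. For Cry1 the difference was 0.27 (−0.06 to 0.61) and for Clock 0.17 (−0.10 to 0.43). For Tef it was −0.10 (−0.33 to 0.12) and for Arntl −0.10 (−0.37 to 0.17). These 4 genes overlapped between the irradiated groups, and their intervals leave room for a difference in either direction.

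A gene can have several probe sets, which read different stretches of its transcripts, and 16 of the 25 member probe sets passed the filter when each was tested as its own row. Of these, 12 rose, 3 fell and 1 did not pass at day 4, where 61.4% of all tested probe sets passed, 38.5% risen and 22.9% fallen. At day 7, 11 rose, 3 fell and 2 did not pass, beside 52.5%, 30.1% and 22.4%. Between day 7 and day 4, 1 rose, 5 fell and 10 did not pass, beside 24.3%, 9.87% and 14.5%. That split was not stable: with the stricter level of 6, 3 rose and 2 fell, and without untreated replicate 2, 3 rose and 4 fell. The groups did not overlap in 16, 15 and 11 of the 16, where 66.6%, 61.1% and 48.8% of all tested probe sets did not. The 3 that fell were the single tested probe sets of Per1, Arntl and Cry1. In 4 probe sets, 3 of Per3 and 1 of Tef, every untreated array was below the level of 4. These probe sets entered the test only through the irradiated groups. The counts above, including those of groups that did not overlap, contain them, and their calls carry no weight there. Those calls include the falls from day 4 to day 7 of 1442243_at and 1458176_at of Per3 and 1438033_at of Tef.

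The 2 Dbp probe sets moved alike. The dimmer, 1418174_at, read 4.98, 5.22 and 5.01 in untreated, 7.02, 7.30 and 7.09 at day 4, and 7.81, 7.58 and 7.37 at day 7. It rose by 2.07 and 2.51 log2, close to the 2.09 and 2.52 of the brighter one, and was 0.45 higher at day 7 than at day 4 (adjusted p = 0.0408 over all probe sets).

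The 3 dim Per3 probe sets also had their highest mean at day 4. Probe set 1441445_at read 3.69, 3.65 and 3.75 in untreated, 5.46, 5.41 and 5.24 at day 4, and 5.31, 4.48 and 4.52 at day 7, at least 2.59-fold and 1.71-fold higher than untreated. Probe set 1442243_at was at least 2.26-fold higher at day 4 and fell from day 4 to day 7 by 0.83 log2 (adjusted p = 0.0383). Probe set 1458176_at was at least 1.59-fold higher at day 4 and its mean log2 values were 4.67 at day 4 and 3.97 at day 7, where 1 of 3 arrays reached the level of 4. The dimmer tested probe set of Tef, 1438033_at, was at least 1.73-fold higher at day 4 and at least 1.11-fold higher at day 7. Unlike the brighter Tef probe set, it fell between these days, by 0.64 log2 (adjusted p = 0.0476).

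The 4 Clock probe sets did not give one picture. The brightest, 1418659_at, is the one described above. Probe set 1435775_at read 5.84, 6.04 and 5.91 in untreated, 6.85, 6.89 and 7.00 at day 4, and 6.46, 6.74 and 6.69 at day 7, a rise of 0.98 and then of 0.70. Probe set 1418660_at rose by 0.88 at day 4 and 0.40 at day 7 (adjusted p = 0.0232), and fell from day 4 to day 7 by 0.49 (adjusted p = 0.021). Probe set 1439314_at differed from untreated by 0.33 (adjusted p = 0.147) and −0.18 (adjusted p = 0.429). All 4 were higher at day 4 than in untreated, and they disagreed on the direction from day 4 to day 7, where the mean of all of them gave −0.28 (adjusted p = 0.0148) against 0.17 for the brightest.

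**Figure D3:**
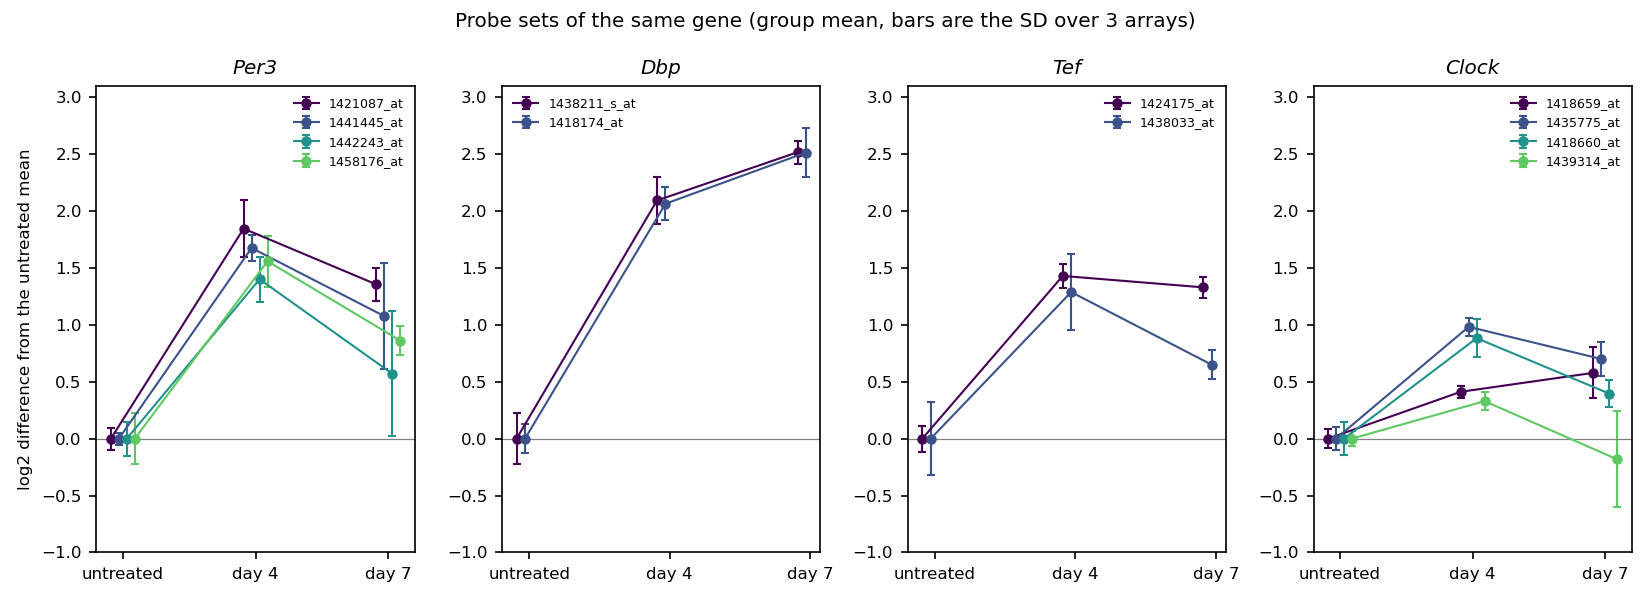
Log2 difference from the untreated mean (vertical axis) for each tested probe set of Per3, Dbp, Tef and Clock, as group means with SD bars over 3 arrays and lines joining the untreated, day 4 and day 7 means. Both Dbp probe sets follow one course, the means of the tested Per3 probe sets are highest at day 4, and the Clock probe sets lie apart at both days. For the dim Per3 probe sets and the dimmer Tef one, every untreated array was below the level of 4.

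The remaining probe sets were dim. Besides Nr1d1, the 3 of Per2 and the dimmer of Arntl, they were 2 of Per3, 1 of Tef and 1 of Nr1d2, which lay at or close to the floor in every group. When all probe sets of a gene were averaged, dim ones included, the differences at day 4 and day 7 shrank to 1.08 and 0.67 for Per3, 0.91 and 0.66 for Tef, and 0.23 and 0.43 for Nr1d2. For Clock they became 0.65 and 0.37. All of these still passed against untreated.

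Other genes of the clock moved in both directions. Of the further core factors listed, 8 were tested. At day 4, 5 rose, 2 fell and 1 did not pass (median 0.52 log2), and at day 7, 5 rose, 1 fell and 2 did not pass (median 0.59). With centring on the epithelial markers 3 rose at day 4 (median 0.14) and 2 fell at day 7 (median 0.37). The risen genes include Hlf, which entered the test only through the irradiated groups. Without it 4 rose at each day, and with Hlf at its bound the medians were 0.50 and 0.58. Without untreated replicate 2 or day 4 replicate 1 or 3, 1 fell at day 4, and without untreated replicate 2, 2 fell at day 7. Bhlhe40, a repressor that competes for E-boxes, had log2 levels of 7.48 ± 0.17 in untreated, 7.96 ± 0.03 at day 4 and 8.65 ± 0.08 at day 7 (SD, n = 3). It rose by 0.47 (adjusted p = 0.00327) and 1.16 (adjusted p = 5.43e-05), and by 0.69 from day 4 to day 7 (adjusted p = 0.00205). Centred on the epithelial markers, its day 4 call was lost (0.09, adjusted p = 0.562).

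Rora, the activator that opposes the REV-ERB receptors at ROR elements, rose by 0.92 at day 4 (adjusted p = 0.000133) and 0.53 at day 7 (adjusted p = 0.00384). The day 7 call was lost when arrays were centred on the epithelial markers (0.31, adjusted p = 0.0767). Hlf, the third PAR bZIP factor, had log2 levels of 2.67 ± 0.22 in untreated, 4.53 ± 0.52 at day 4 and 4.63 ± 0.19 at day 7. All its untreated arrays were below 4, so it was at least 1.45-fold higher at day 4 and at least 1.55-fold higher at day 7.

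Most of the kinases and ubiquitin ligases that set the life of PER and CRY proteins moved little against untreated. Of 10 listed, 7 were tested: 1 rose and 6 did not pass at each day against untreated, with medians of 0.08 and −0.11 log2. The median at day 4 turned negative when arrays were centred on the mean of all tested genes (−0.02) or on the epithelial markers (−0.29, and −0.33 at day 7). With the epithelial centring 3 of the 7 fell at each day. Without untreated replicate 2, 1 fell at each day, and without untreated replicate 3, 2 rose at each day. The day 4 median was 0.13 without untreated replicate 1 and 0.03 without day 4 replicate 2. The gene that rose was Btrc, a ligase subunit that marks PER proteins for breakdown, by 1.11 at day 4 (adjusted p = 4.82e-05) and 0.46 at day 7 (adjusted p = 0.00815). The day 7 call was lost with centring on the epithelial markers (0.24, adjusted p = 0.236). From day 4 to day 7, 3 of the 7 fell and 4 did not pass (median −0.16 log2), where 17.6% of all tested genes fell. The 3 falls became 1 when centred on the mean of the tested genes and 0 when centred on the epithelial markers.

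Of 8 genes often used as clock outputs, 7 were tested, of which 3 rose and 2 fell at day 4 (median 0.29 log2) and 3 rose and 1 fell at day 7 (median 0.02). Centred on the epithelial markers these medians were −0.09 and −0.20, and centred on the mean of the tested genes the medians were 0.18 and −0.02. The day 4 median was 0.45 without untreated replicate 2 and 0.12 without untreated replicate 3. The day 7 median had no settled sign: it was −0.01 and −0.05 without untreated replicate 1 and 3, −0.07 without day 7 replicate 1, and 0.12, 0.07 and 0.10 without untreated replicate 2, day 7 replicate 2 and day 7 replicate 3. The gene that fell at day 7, Wee1, named here after its values were seen, lost its call without untreated replicate 1 or 3 or day 7 replicate 2, and without untreated replicate 2 the list held 2 that fell. The 3 that rose at each day were Klf15, Cdkn1a and Nampt. Klf15, a metabolic regulator, rose by 1.75 at day 4 (adjusted p = 2.33e-05) and 1.45 at day 7 (adjusted p = 0.000145). Cdkn1a, which encodes the cell cycle inhibitor p21 and is also a target of p53 after DNA damage, rose by 1.93 and 1.48 (adjusted p = 3.93e-05 and 0.000334). Nampt, the rate-limiting enzyme of NAD salvage, rose by 0.73 (adjusted p = 0.00028) and 0.44 (adjusted p = 0.0064), the latter lost when arrays were centred on the epithelial markers (0.22, adjusted p = 0.191).

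Since Per1 is also an acute target of hormone and cAMP signals, genes of those responses were set beside it. All 9 listed glucocorticoid response genes were tested. At day 4, 3 rose, 3 fell and 3 did not pass (median 0.29 log2, 0.18 when centred on the mean of the tested genes and −0.09 when centred on the epithelial markers). Under either centring, and without untreated replicate 1, 2 rose. Without untreated replicate 2, 5 rose and the median was 0.50, and it was −0.01, 0.18 and 0.16 without untreated replicate 1, untreated replicate 3 and day 4 replicate 2. At day 7, 5 rose, 2 fell and 2 did not pass (median 0.62, 0.38 without untreated replicate 1 and 0.40 when centred on the epithelial markers). Under either centring, and without untreated replicate 1, 4 rose at day 7. Fkbp5, a chaperone of the glucocorticoid receptor, fell by 1.29 at day 4 (adjusted p = 9.63e-05) and by 0.67 at day 7 (adjusted p = 0.0049). Klf9 rose by 0.89 (adjusted p = 0.000162) and 0.65 (adjusted p = 0.00135). Sgk1, a kinase induced by the hormone, fell from a mean log2 level of 10.08 to 9.08 at day 4 (adjusted p = 0.000189) and differed by 0.12 at day 7 (adjusted p = 0.476).

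The immediate early and cAMP response genes fell at day 4. Of 12 tested, 9 fell and 3 did not pass (median −1.23 log2). Without untreated replicate 1, 10 fell, and without untreated replicate 2, 8 fell. At day 7, 2 rose (1 without untreated replicate 1 or day 7 replicate 1 or 2), 3 fell and 7 did not pass (median 0.29, 0.18 without untreated replicate 1 and 0.07 when centred on the epithelial markers), and from day 4 to day 7, 11 rose and 1 did not pass (median 1.43). Some of the 11 rises lost their call without day 4 replicate 1 or 2 or any single day 7 array, with adjusted p up to 0.0755. Nr4a1, a nuclear receptor of the acute response, had log2 levels of 10.05 ± 0.67 in untreated, 5.35 ± 0.79 at day 4 and 8.79 ± 0.20 at day 7 (SD, n = 3). It fell by 4.70 at day 4 (adjusted p = 1.98e-05) and rose by 3.44 from day 4 to day 7 (adjusted p = 0.000763). Its day 7 difference from untreated, −1.26 (adjusted p = 0.0296), lost its call without untreated replicate 1 (adjusted p = 0.0783) or 3 (0.095) and without any single day 7 array. Nr4a2 fell by 2.51 at day 4 (adjusted p = 0.000144) and by 1.23 at day 7 (adjusted p = 0.00939), and Sik1, a kinase induced by cAMP, by 0.94 and 0.76 (adjusted p = 0.000469 and 0.00218). The mean log2 level of this list was 9.13 to 9.95 in untreated, 7.35 to 8.36 at day 4 and 9.64 to 9.85 at day 7, and its part in the levels of Per1 was not tested.

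The profiles most like those of the 2 opposite arms were found by the root mean square distance between profiles over the 9 arrays, each centred on its own mean. For Dbp the nearest of the 10936 other tested genes were Syngr1 (0.198 log2), Scn1a (0.281), Rbm20 (0.287), Hmcn1 (0.298) and Pla2g7 (0.314), where the median gene was at 1.07. Hmcn1 had an untreated mean of 2.71, below the level of 4, so its distance rests in part on background values. Among members, Tef ranked 161 and Per3 ranked 211 in nearness to Dbp, and Arntl ranked 9547. For Arntl the nearest were Cenpj (0.0565), Dhx16 (0.0645), Ephb6 (0.0802), Dennd1b (0.083) and R3hdm1 (0.0831), where the median gene was at 0.527. The nearest member to Arntl was Cry1, at 0.299 and rank 1490. No core clock factor was among the 5 nearest to either gene, and the 9 arrays share their 3 groups.

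The cells behind these levels also changed. All 13 tested thymocyte markers fell at both days, and their mean log2 level was 9.43 to 9.86 in untreated, 3.40 to 3.75 at day 4 and 6.93 to 7.08 at day 7. At day 4, Cd4, Cd8b1 and Rag2 were at 2.27 to 2.35, at or close to the floor. All 11 tested markers of dividing cells also fell at both days, from a mean of 8.30 to 9.01 to 3.60 to 3.90 and then 6.85 to 7.11. The day 4 means of both lists lay below the level of 4, so the sizes of these falls at day 4 are not exact. Cd4, Rag2 and the dividing cell marker Plk1 reached that level on untreated arrays only, with day 7 means of 2.57, 2.76 and 3.12. They entered the test only through the untreated group, so their falls carry no weight in the counts. All 10 fibroblast markers rose at day 4 and 9 of them at day 7, with means of 10.13 to 10.69, 11.47 to 12.01 and 11.11 to 11.44. Of the 13 tested epithelial markers 8 rose and 2 fell at each day, with means of 10.79 to 11.04, 11.21 to 11.39 and 11.08 to 11.21. The 10 tested endothelial markers had means of 4.33 to 6.19, 5.33 to 6.12 and 7.56 to 7.67, with 4 risen at day 4 and 10 at day 7. In such mixtures fewer cells of a type and less RNA per cell cannot be told apart, and the part of this shift in the levels of the clock genes was not tested.

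**Figure D4:**
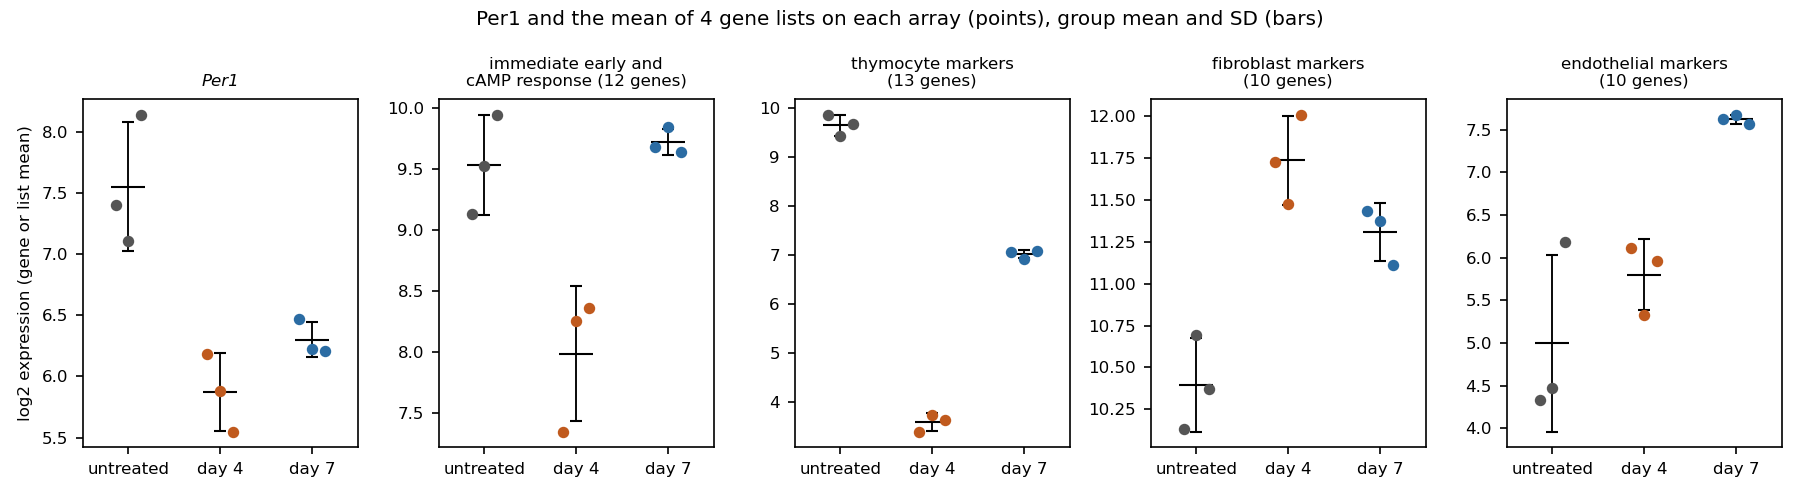
Log2 level of Per1 and mean log2 level of 4 gene lists (vertical axis, a separate scale in each panel, not starting at 0) on each of the 9 arrays, with points for arrays and bars for the group mean and SD. Per1, the immediate early and cAMP genes and the thymocyte markers are lower on every day 4 array than on every untreated one. At day 7 Per1 and the thymocyte markers stay below every untreated array, while the immediate early and cAMP genes lie within the untreated range.

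RNA quality was read as the 3′ minus 5′ difference of control probe sets. For Actb it was 2.28 ± 0.15 log2 in untreated, 3.13 ± 0.17 at day 4 and 2.51 ± 0.21 at day 7 (SD, n = 3), with a two-sided exact permutation p of 0.1 at day 4 and 0.2 at day 7 against untreated. For Gapdh it was 0.90 ± 0.13, 1.37 ± 0.24 and 0.90 ± 0.21, with exact permutation p of 0.1 and 1. Between day 7 and day 4 it differed by −0.62 for Actb and −0.47 for Gapdh, each with an exact permutation p of 0.1. The smallest p that 3 arrays against 3 allow is 0.1. The part of RNA quality in the members' levels was not tested.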

How the data were processed

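Per the labels' protocols, 500 ng of total RNA per sample was labelled with a 3′ IVT kit. The authors deposited 1 table of values for the 9 arrays, which per the submitters' processing notes came from GCRMA, and the array type is per the series' design text. The deposited values are taken as log2 from their range of about 2.27 upward, since the base is not stated. The version of GCRMA is not given in the sources, and no batch is named there. No depth exists for arrays, and their number, 3 per group, limits the precision. Probe sets were named through the platform's gene table: 34945 had 1 symbol, 932 several and 9160 none, besides 64 controls, and 34741 matched RefSeq by gene identifier. No member shared a probe set with another gene.

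The model was fitted in R 4.3.3 with limma 3.58.1, its functions lmFit and eBayes, on all 9 arrays with the group as the only term, and adjusted p-values are Benjamini-Hochberg over the 10937 tested genes, or over the 17819 tested probe sets where single probe sets are given. It was tested on simulated data. Folds are 2 to the power of the log2 difference. "At least" folds set the higher mean against the level of 4. Promoter letters were counted in Python 3.11 in RefSeq's GRCm38.p6 table, where Per2 is not analysed here.

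The text names every member, the 3 tested genes of each pathway list with the smallest adjusted p in any comparison, and the 5 nearest profiles to Dbp and to Arntl. Members, lists and tests were chosen with earlier results of these data known. Alternatives were no filter, a level of 6, averaging a gene's probe sets, centring on all tested genes or on epithelial markers, a variance trend, array weights, only the compared groups, a replicate block, and leaving out each array.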

Additional observations from a re-analysis of the deposited data

Results flagged for a closer look

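Each result here is a difference between the effects at day 7 and day 4, tested as day 7 minus day 4 in limma with adjustment over all tested genes or probe sets. Groups of 3 arrays are too small for the check on single outlying arrays.

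Among members, Per3 differed by −0.49 log2 (adjusted p = 0.0287) and Nr1d2 by 0.38 (adjusted p = 0.0474). Of the further probe sets, 1442243_at of Per3 differed by −0.83, 1458176_at of Per3 by −0.70 with a day 7 mean of 3.97 at which 1 of 3 arrays reached the level of 4, 1438033_at of Tef by −0.64, 1418660_at of Clock by −0.49 and 1418174_at of Dbp by 0.45. In 1442243_at, 1458176_at and 1438033_at every untreated array was below the level of 4, so these entered the test only through the irradiated groups. For 1442243_at, 2 of 3 day 7 arrays reached that level. Against untreated, the differences of these flagged member genes and member probe sets had the same sign at both days.

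Among the listed pathway genes, Bhlhe40 differed by 0.69 log2 (adjusted p = 0.00205), Btrc by −0.64 (adjusted p = 0.00449), Sgk1 by 1.12 (adjusted p = 0.000648) and Nr4a1 by 3.44 (adjusted p = 0.000763). Rora differed by −0.39 (adjusted p = 0.0337), Csnk1d, a kinase of PER proteins, by −0.36 (adjusted p = 0.0308) and Fbxw11, a ligase subunit, by −0.29 (adjusted p = 0.0479). Fkbp5 differed by 0.62 (adjusted p = 0.0165) and Nr4a2 by 1.28 (adjusted p = 0.0171). The calls of Rora, Csnk1d, Fbxw11, Fkbp5 and Nr4a2 were lost when single arrays were left out, with adjusted p up to 0.101, 0.105, 0.156, 0.057 and 0.0587. For Rora this was any irradiated array, for Csnk1d day 4 replicate 1 or 2 or day 7 replicate 2 or 3, and for Fbxw11 any irradiated array or untreated replicate 1. For Fkbp5 it was day 4 replicate 1 or 3 or day 7 replicate 1 or 2, and for Nr4a2 day 4 replicate 1 or 2 or day 7 replicate 3. Those of Rora, Csnk1d and Fbxw11 were also lost under centring on the mean of the tested genes (0.0649, 0.0638 and 0.104), and those of Rora, Csnk1d, Fbxw11 and Btrc under centring on the epithelial markers (0.26, 0.31, 0.493 and 0.0588).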

How the results depend on the processing

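Against untreated, the calls of Per1, Per3, Dbp, Tef, Arntl and Cry1 at both days and of Nr1d2 at day 7 held under all 18 alternatives. Those of Clock at both days and of Nr1d2 at day 4 were lost only with centring on the epithelial markers. Between day 7 and day 4, 2 member genes passed, and 0 passed in limma with no filter on dim genes (4 at an unadjusted p under 0.05) or with the replicate block (3 at an unadjusted p under 0.05). Leaving out single arrays gave 0 to 3 (1 to 4 unadjusted) and 1760 to 3464 of all genes. Of member probe sets 6 passed, and 1 with no filter, 3 with the replicate block and 1 to 7 without single arrays, beside 4334 of all probe sets, 2669 with no filter and 2305 to 5057 without single arrays. The difference of Clock between these days turned from 0.17 to −0.28 with the mean of its probe sets, as its dimmer probe sets had lower means at day 7. Centring on the epithelial markers ended the Per3 call between these days (−0.33, adjusted p = 0.161), and averaging probe sets ended that of Nr1d2 (0.20, adjusted p = 0.0769). Dbp passed between these days under several settings, such as centring on the mean of the tested genes (0.50, adjusted p = 0.0231). The cause of the other changes was not tested. Deviations of same-numbered arrays correlated at −0.12 to 0.18 over genes, and those of different-numbered arrays at −0.29 to 0.21. With 3 arrays per group these correlations cannot settle whether replicate numbers pair the arrays. The replicate block changed no call of a member gene against untreated. A level near the floor limits Per2, Nr1d1 and Hlf.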
